A study of Mus musculus with 9 samples.

Results

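The 10 genes described here mark the mural cells of vessels, that is, smooth muscle cells and pericytes. They were taken as the rows of the read count table whose gene name is Acta2, Tagln, Myh11, Cnn1, Des, Cspg4, Pdgfrb, Rgs5, Mcam or Notch3, 10 of the 46078 genes in the table. Transcriptomes of bone marrow endothelial cells (BM ECs) were measured by bulk RNA-seq in wild-type mice of the B6 strain that received no treatment. Cells gated as CD45-Ter119-CD31+ were sorted into Sca-1+ ECs (4 libraries, numbered here 7, 13, 15 and 19 after the end of their labels) and Sca-1- ECs (5 libraries, numbered 8, 10, 14, 16 and 22). The study uses high Sca-1 to mark vessels of the arterial side and low Sca-1 to mark sinusoids, and in its imaging it used α-SMA, the protein made by Acta2, to tell arteries from arterioles. The ages and sex of the mice, and whether cells of several mice were pooled, are not given in the labels. The p-values thus measure only the spread between these libraries. The labels also differ by a tag. It reads wt for libraries 8, 15, 16 and 19, differs for libraries 10, 13, 14 and 22, and is absent for library 7. What the tags stand for is not given, and their part in the values was not tested.

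Mural cells wrap the endothelial tube. Smooth muscle cells of arteries and arterioles carry actin and myosin filaments that set the width of the vessel, and pericytes sit on capillaries and small vessels within the basement membrane. ECs release PDGF-B, which recruits mural cells through their receptor PDGFRβ, and EC Notch ligands act on NOTCH3 of the neighboring mural cell. Smooth muscle cells and pericytes are not known for CD31, the surface protein on which the cells were gated. Of the 10 genes, Acta2, Tagln, Myh11, Cnn1 and Des belong to the contractile apparatus and cytoskeleton, and Cspg4, Pdgfrb, Rgs5, Mcam and Notch3 to the cell surface and signaling.

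Each library held 21581653 to 25959818 counted reads, and a library at or under 3 counts, its floor, corresponded to 0.0996 to 0.209 CPM (read counts relative to the TMM-scaled library size). Intervals of counting were not added, since the libraries carry no molecular identifiers and a floor covers counting error only. Ly6a, which encodes Sca-1, lay between 874 and 1310 CPM in Sca-1+ ECs and between 0.24 and 1.49 CPM in Sca-1- ECs, so that the 2 sorts were apart by the gene they were sorted on. The endothelial label fitted less evenly. The summed level of 25 endothelial markers was 16100 to 20100 CPM in Sca-1+ ECs and 1630 to 3960 CPM in Sca-1- ECs, and Cdh5, which encodes VE-cadherin, averaged 264 CPM against 7.14 CPM. By the test given below, 23 of the 25 were higher in Sca-1+ ECs. Emcn was among them, at 855 against 19.2 CPM, although the imaging of the study took endomucin, its protein, as present on sinusoids and absent from arterioles. Vwf was lower, at 75.7 against 778 CPM, and Esam was not called, at 1200 against 1030 CPM. These 2 genes thus weighed heavily in the Sca-1- sum. The summed level of 14 megakaryocyte and platelet markers was 381 to 562 CPM in Sca-1+ ECs and 23000 to 87400 CPM in Sca-1- ECs, where Pf4, platelet factor 4, averaged 6630 CPM. The labels open with running numbers, 30016 to 30019 for Sca-1+ ECs and 30108 to 30115 for Sca-1- ECs, so that any effect of this order and the effect of the sort cannot be told apart.

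Serum response factor (SRF) binds the CArG box in many smooth muscle genes. Because Acta2 was higher in Sca-1+ ECs and its companion Myl9 was lower, the stretches around their CArG-like boxes are shown first. RefSeq promoter sequence on GRCm38.p6 was at hand for 7 of the 10 genes, and the 250 bases before the start were searched. The box reads the same in form on both strands, so that 1 scan covered both. The exact CArG box was in 0 of these 7 windows and in 482 of all 32851 windows (1.47%). With 1 of the A or T positions changed to any base, a rule chosen after the exact search, 8.59% of all windows held at least 1 box and 0.67% held 2 or more. Acta2 held 2, and the other 6 genes held 0. Myl9 held 1 exact box and 1 changed box. The boxes are in capitals, 5′ to 3′ on the strand of the gene, with 10 bases on either side. The Acta2 boxes are at chr19:34255438-34255467 and chr19:34255388-34255417 (with their flanks, minus strand), beginning 84 and 34 bases before the RefSeq start, and GENCODE M21 places both within the first exon of a longer Acta2 transcript. The Myl9 boxes are at chr2:156775293-156775322 and chr2:156775355-156775384 (plus strand), beginning 161 and 99 bases before the start.
Acta2, distal box: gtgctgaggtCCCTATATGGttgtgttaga
Acta2, proximal box: cgtctttgctCCTTGTTTGGgaagcgagtg
Myl9, distal box: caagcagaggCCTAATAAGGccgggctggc
Myl9, proximal box: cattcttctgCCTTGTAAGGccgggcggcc
These matches describe letters in a window and no binding was measured.

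All 10 genes had enough reads to be tested. The 2 fractions were compared by the two-sided quasi-likelihood test of edgeR, and p-values were adjusted by Benjamini-Hochberg across 15937 genes. Acta2, Tagln, Myh11, Des, Rgs5, Mcam and Notch3 were higher in Sca-1+ ECs, 0 of the 10 were lower, and Cnn1, Cspg4 and Pdgfrb were not called. Over all genes tested 44.8% differed, 23.3% being higher and 21.4% lower in Sca-1+ ECs. The same 7 genes had every Sca-1+ library above every Sca-1- library, which 24.8% of all genes did, while 18.8% had every Sca-1- library above. The median log2 fold change of the 10 genes was 4.47, against 0.07 over all genes tested. The 10 genes together took 0.041% to 0.173% of the counts of a Sca-1+ library and 0.00116% to 0.00644% of those of a Sca-1- library. In bulk samples, fewer cells of a type and less RNA per cell cannot be told apart.

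**Figure D1:**
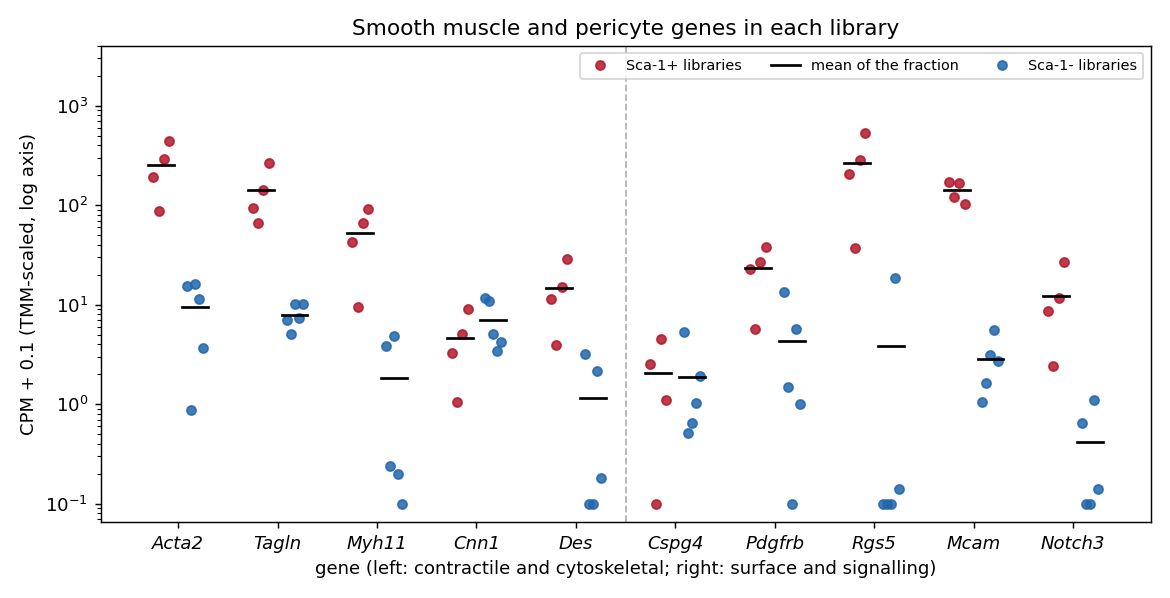
The level of each gene in every library, as CPM + 0.1 on a log axis, with Sca-1+ libraries in red, Sca-1- libraries in blue and the mean of each fraction as a black bar. The colors are apart for Acta2, Tagln, Myh11, Des, Rgs5, Mcam and Notch3, and mixed for Cnn1, Cspg4 and Pdgfrb.

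Acta2 (ENSMUSG00000035783, chr19:34241090-34255590, minus strand) encodes α-smooth muscle actin, the actin of contractile filaments. In Sca-1+ libraries 7, 13, 15 and 19 it stood at 194, 87.6, 294 and 444 CPM. In Sca-1- libraries 8, 10, 14, 16 and 22 it stood at 15.3, 0.768, 16, 11.2 and 3.54 CPM. The lowest Sca-1+ library was thus above the highest Sca-1- library, and Sca-1- library 10 was the lowest of all. Mean levels were 255 ± 152 CPM (SD, n = 4) in Sca-1+ ECs but 9.36 ± 6.89 CPM (SD, n = 5) in Sca-1- ECs, for a log2 fold change of 4.76 (SE 0.81, edgeR adjusted p = 0.00097). Coordinates of the genes are those of GENCODE M21 on GRCm38. The Sca-1- counts of Acta2 were 11 to 376 reads per library, above the floor in each of the 5.

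Tagln (ENSMUSG00000032085, chr9:45929619-45936058, minus strand) encodes transgelin (SM22α), an actin-binding protein of smooth muscle. Its level was 94.3, 66.7, 141 and 265 CPM in the Sca-1+ libraries, in the order above, and 6.85, 4.96, 10.1, 7.31 and 10 CPM in the Sca-1- libraries. The Sca-1- libraries lay close together, and library 10 was again the lowest. Tagln thus had a log2 fold change of 4.17 (SE 0.43, edgeR adjusted p = 6e-05). This value is uncertain in 1 respect, because 62.4% of the Tagln exon bases are covered on the opposite strand by the antisense gene Gm48529 and 5.43% by Pcsk7, and the use of strand in counting is not given in the sources used here. Pcsk7 had up to 1950 reads in a library. Gm48529 had no row in the read count table, so its reads are not known, and whether any were counted for Tagln could not be checked.

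Myh11 (ENSMUSG00000018830, chr16:14194535-14291372, minus strand) encodes the smooth muscle myosin heavy chain, the most restricted of the contractile markers. It stood at 42.7, 9.43, 66 and 91.2 CPM in the Sca-1+ libraries. In the Sca-1- libraries it stood at 3.72, 0.14, 4.75, 0.0996 and 0 CPM. Sca-1- libraries 8 and 14 held 62 and 112 Myh11 reads, and the other 3 were at the floor. Between fractions Myh11 had a log2 fold change of 4.91 (SE 1.29, edgeR adjusted p = 0.011).

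Des (ENSMUSG00000026208, chr1:75360329-75368579, plus strand) encodes desmin, the intermediate filament protein of muscle cells and many pericytes. Its level was 11.2, 3.88, 14.9 and 28.5 CPM in the Sca-1+ libraries and 3.12, 0, 0, 2.06 and 0.0814 CPM in the Sca-1- libraries. The fractions did not overlap, but Sca-1+ library 13 and Sca-1- library 8 were close to each other. Its log2 fold change was 3.79 (SE 1.29, edgeR adjusted p = 0.036). The antisense gene Gm15179, which was not analysed here, overlaps 5.86% of its exon bases. The call was lost in 5 of the 9 fits that left out 1 library, namely those without Sca-1+ library 7, 15 or 19 or Sca-1- library 10 or 22, with adjusted p up to 0.098.

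Cnn1 (ENSMUSG00000001349, chr9:22099216-22109630, plus strand) encodes calponin 1, which binds actin and slows the myosin motor in smooth muscle. It stood at 3.17, 0.954, 5.01 and 9.06 CPM in the Sca-1+ libraries and at 11.7, 10.8, 4.96, 3.35 and 4.15 CPM in the Sca-1- libraries. The fractions overlapped, and each of the Sca-1- libraries held 101 to 194 reads. The log2 fold change was -0.62 (SE 0.63, edgeR adjusted p = 0.46), so that this gene, alone of the 5 contractile genes, was not called higher in Sca-1+ ECs. Its paralogs went both ways, with Cnn3 at a log2 fold change of 3.61 (adjusted p = 0.00011) and Cnn2 at -3.50 (adjusted p = 9.4e-05); both were chosen after their values were seen.

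Rgs5 (ENSMUSG00000026678, chr1:169655501-169695813, plus strand) encodes a regulator of G protein signaling that is a classical pericyte marker. Its level was 205, 37.5, 283 and 539 CPM in the Sca-1+ libraries, with 1100 to 13910 reads. In the Sca-1- libraries it stood at 0, 0, 0, 18.5 and 0.0407 CPM. The Sca-1- signal was 556 reads in library 16 and 1 read in library 22, so that 4 of the 5 Sca-1- libraries were at the floor. Its log2 fold change was 6.13 (SE 1.87, edgeR adjusted p = 0.022). Without Sca-1- library 16 it was 13.87, a value fitted against libraries at the floor. It depends on the default prior count of the edgeR fit, which is separate from the prior count used for log2 CPM. Without Sca-1+ libraries 13 and 19 together, a choice made after seeing the data, it was 6.02 with an adjusted p of 0.068.

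Notch3 (ENSMUSG00000038146, chr17:32120820-32166852, minus strand) encodes the Notch receptor of mural cells. It stood at 8.49, 2.35, 11.7 and 26.5 CPM in the Sca-1+ libraries and at 0.541, 0, 0, 0.996 and 0.0407 CPM in the Sca-1- libraries. The only Sca-1- libraries above the floor were 8 and 16, with 9 and 30 reads. The log2 fold change was 5.21 (SE 1.21, edgeR adjusted p = 0.0056). An antisense gene, Gm17276, overlaps 6.03% of the Notch3 exon bases and had at most 17 reads in a library.

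Mcam (ENSMUSG00000032135, chr9:44134469-44142727, plus strand) encodes CD146, an adhesion molecule of mural cells that ECs also carry. Its level was 172, 122, 166 and 104 CPM in the Sca-1+ libraries and 0.961, 1.54, 3.05, 5.45 and 2.61 CPM in the Sca-1- libraries. The 4 Sca-1+ libraries differed little, with a highest value 1.66 times the lowest. Mcam had a log2 fold change of 5.67 (SE 0.49, edgeR adjusted p = 3.1e-05), with the lowest adjusted p of the 10 genes.

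Pdgfrb (ENSMUSG00000024620) encodes the receptor for the PDGF-B that ECs release. It stood at 22.8, 5.55, 27 and 38.4 CPM in the Sca-1+ libraries and at 13.3, 1.4, 0, 5.61 and 0.896 CPM in the Sca-1- libraries. Sca-1- libraries 8 and 16 overlapped the lowest Sca-1+ library, number 13. A log2 fold change of 2.47 was fitted (SE 1.13, edgeR adjusted p = 0.099), which did not pass the test. Without Sca-1- library 8, which held 221 reads, the log2 fold change was 3.46 and the adjusted p 0.036.

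Cspg4 (ENSMUSG00000032911, chr9:56865033-56899870, plus strand) encodes the NG2 proteoglycan of pericytes. Its level was 2.45, 0, 4.45 and 1.01 CPM in the Sca-1+ libraries and 5.17, 0.419, 0.552, 0.93 and 1.83 CPM in the Sca-1- libraries. The fractions overlapped over most of their range, Sca-1+ library 13 had 0 reads, and the highest value was in Sca-1- library 8. The log2 fold change was 0.16 (SE 1.14, edgeR adjusted p = 0.92), and its sign turned under several other settings.

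Compared per kilobase of merged exon, which allows levels of different genes to be set side by side, the order in Sca-1+ ECs was led by Acta2 at 116 ± 69 CPM per kb, Tagln at 71.3 ± 44.2, Rgs5 at 58.5 ± 45.9 and Mcam at 42.1 ± 9.9 (SD, n = 4). Then followed Myh11 at 6.88 ± 4.58, Pdgfrb at 4.27 ± 2.48, Des at 3.89 ± 2.74, Cnn1 at 1.66 ± 1.26, Notch3 at 1.52 ± 1.27 and Cspg4 at 0.166 ± 0.162 CPM per kb. The means less or plus 1 SD of neighbours in this order were apart only between Mcam and Myh11. For scale, the endothelial gene Cdh5 stood at a mean of 62.8 CPM per kb in the same fraction. In Sca-1- ECs the order was Acta2 (4.26), Tagln (3.95), Cnn1 (2.55), Rgs5 (0.814), Mcam (0.812), Pdgfrb (0.773), Des (0.28), Myh11 (0.229), Cspg4 (0.149) and Notch3 (0.039 CPM per kb), with no neighbours apart by this measure. Cdh5 stood at 1.7 CPM per kb there.

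The 4 Sca-1+ libraries did not hold equal amounts of these genes. Acta2, Tagln, Myh11, Cnn1, Des, Pdgfrb, Rgs5 and Notch3 all had 1 order, with library 13 lowest, then 7, then 15, and library 19 highest, although their levels and their calls differed. This order was shared by 7.72% of all genes tested and by 8.07% of those with an average log2 CPM of 3 or more. The highest library was 5.07 times the lowest for Acta2, 3.97 for Tagln, 9.67 for Myh11, 9.5 for Cnn1, 7.33 for Des, 6.91 for Pdgfrb, 14.4 for Rgs5 and 11.3 for Notch3. The median of this ratio over all genes tested was 1.67. Mcam and Cspg4 had other orders, Mcam being lowest in library 19 and Cspg4 highest in library 15. The summed level of the 10 genes was 336 CPM in library 13, 756 in library 7, 1010 in library 15 and 1550 in library 19, and the summed level of the 25 endothelial markers was 17500, 20100, 18900 and 16100 CPM in the same order. The endothelial sum was thus lowest in the library where the mural genes were highest, and it differed much less between libraries. Leukocyte markers were also highest in library 19, where their sum was 1010 CPM against 27.6 to 136 CPM in the other 3. Their part in the order of the mural genes was not tested. Library 13, lowest in the sum of the 10 genes, is the only Sca-1+ library whose label carries a tag other than wt. The part of the tag in this order was not tested either.

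**Figure D2:**
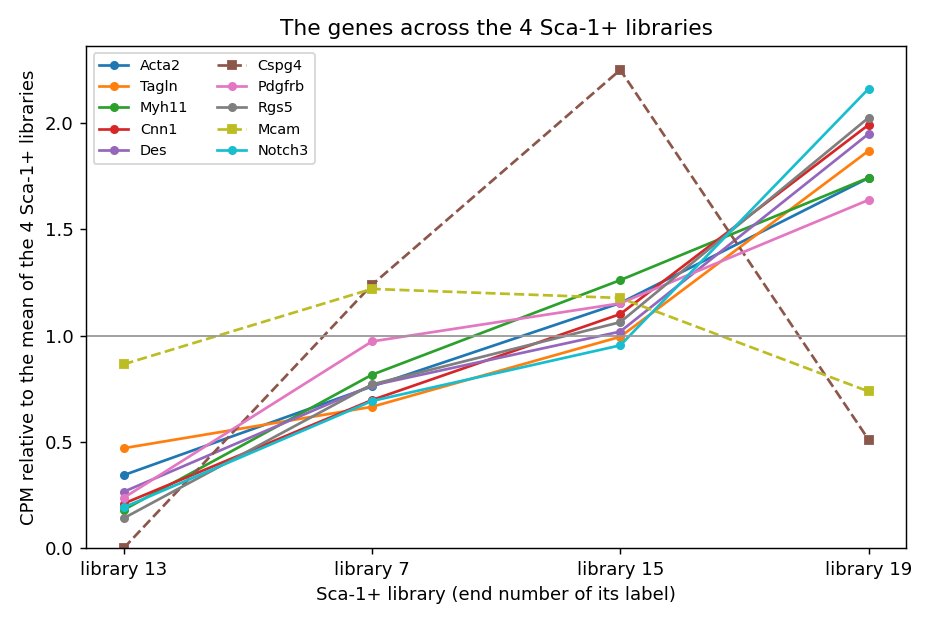
The CPM of each gene in the 4 Sca-1+ libraries, divided by its mean over these libraries and drawn from the lowest to the highest library of most genes. The 8 solid lines are lowest at library 13 and highest at library 19, and Mcam and Cspg4, dashed, have other orders.

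In Sca-1- ECs the genes did not share 1 order. Library 16 held nearly all Rgs5 reads of the fraction and also 62 of Des, 169 of Pdgfrb and 30 of Notch3, but only 3 of Myh11. Library 14 held 112 Myh11 and 376 Acta2 reads but 0 of Des, Pdgfrb, Rgs5 and Notch3. Library 8 held 62 Myh11, 52 Des, 221 Pdgfrb, 86 Cspg4 and 9 Notch3 reads but 0 of Rgs5. Counted per library, 9 genes were above the floor in each of libraries 8 and 16. Libraries 10, 14 and 22 each had 6 genes above it. The labels of libraries 8 and 16 carry the tag wt, and those of libraries 10, 14 and 22 a different tag. The part of the tag in these counts was not tested. The label of library 16 also shares a number with that of Sca-1+ library 15, in which Rgs5 stood at 283 CPM. What this number stands for is not given, so a shared mouse was not established.

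Beside the counts of the lists that follow, the share over all genes tested was 23.3% higher and 21.4% lower in Sca-1+ ECs. Other genes of the contractile apparatus did not move as 1 group. Of 22 such genes listed, all were tested. Sca-1+ ECs had 10 of them higher and 9 lower, and 3 were not called, with a median log2 fold change of 1.19. Casq2, the calsequestrin that stores calcium in the sarcoplasmic reticulum, was the most different, at 12.3, 5.59, 14.4 and 38.1 CPM in the Sca-1+ libraries and at 0 CPM in 4 of the 5 Sca-1- libraries. Its log2 fold change was 6.60 (SE 1.29, edgeR adjusted p = 0.0022). Hspb1, a small heat shock protein that binds actin, had a log2 fold change of 4.76 (SE 0.47, adjusted p = 5.3e-05).

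Myl9, the regulatory light chain of smooth muscle and non-muscle myosin, went the other way. It stood at 190, 70.9, 267 and 356 CPM in the Sca-1+ libraries and at 6510, 6110, 4140, 2200 and 2460 CPM in the Sca-1- libraries, with every Sca-1- library above every Sca-1+ library. Its log2 fold change was -4.28 (SE 0.59, edgeR adjusted p = 0.00032). Mylk, the kinase that phosphorylates this chain, averaged 70.4 CPM against 311 CPM, with a log2 fold change of -2.14 (SE 0.45, adjusted p = 0.0034). Both are also made by megakaryocytes and platelets, whose summed markers are given above, and the part of those cells in these values was not tested. Within the Sca-1+ libraries, Myl9 and Mylk had the same order as Acta2, from library 13 to library 19, as did 12 of the 22 contractile companions (54.5%).

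Pericyte companions were split in a similar way. Of 20 listed, 19 were tested, Atp13a5 being at 0 in every library, and Sca-1+ ECs had 11 higher and 7 lower, with a median log2 fold change of 3.03. Abcc9 and Kcnj8, the 2 subunits of the ATP-sensitive potassium channel of mural cells, were both higher. Abcc9 stood at 111, 112, 171 and 89.2 CPM in the Sca-1+ libraries and at 1.38, 0.0698, 0, 18.3 and 3.05 CPM in the Sca-1- libraries, a log2 fold change of 4.70 (SE 1.29, edgeR adjusted p = 0.013). Kcnj8 averaged 295 ± 116 CPM (SD, n = 4) in Sca-1+ ECs but 8.53 ± 11.9 CPM (SD, n = 5) in Sca-1- ECs (log2 fold change 5.10, SE 1.21, edgeR adjusted p = 0.0062). Art3, an ecto-ADP-ribosyltransferase of the list, was also higher, at 122 against 1.29 CPM and a log2 fold change of 6.54 (SE 0.45, adjusted p = 1.5e-05).

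Abcc9, Kcnj8 and Art3 did not follow the order of Acta2 in the Sca-1+ libraries, since Abcc9 and Kcnj8 were lowest in library 19 and Art3 in library 7. The order was followed by 10 of the 19 pericyte companions tested (52.6%), among them Vtn, Higd1b, Ndufa4l2 and Cox4i2, which were chosen after their values were seen. Vtn, which encodes vitronectin, had a highest Sca-1+ library 60.2 times the lowest.

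The pericyte companions that fell included Pde5a, the phosphodiesterase that breaks down cyclic GMP, and Angpt1, the ligand of the endothelial receptor Tie2. Pde5a stood at 2.52, 0.477, 1.93 and 2.71 CPM in the Sca-1+ libraries and at 203, 255, 111, 64 and 106 CPM in the Sca-1- libraries, a log2 fold change of -6.27 (SE 0.66, edgeR adjusted p = 6.9e-05). Angpt1 averaged 4.89 against 316 CPM, a log2 fold change of -6.01 (SE 0.82, adjusted p = 0.00029). Megakaryocytes and platelets also express both genes, and their part in the difference was not tested.

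**Figure D3:**
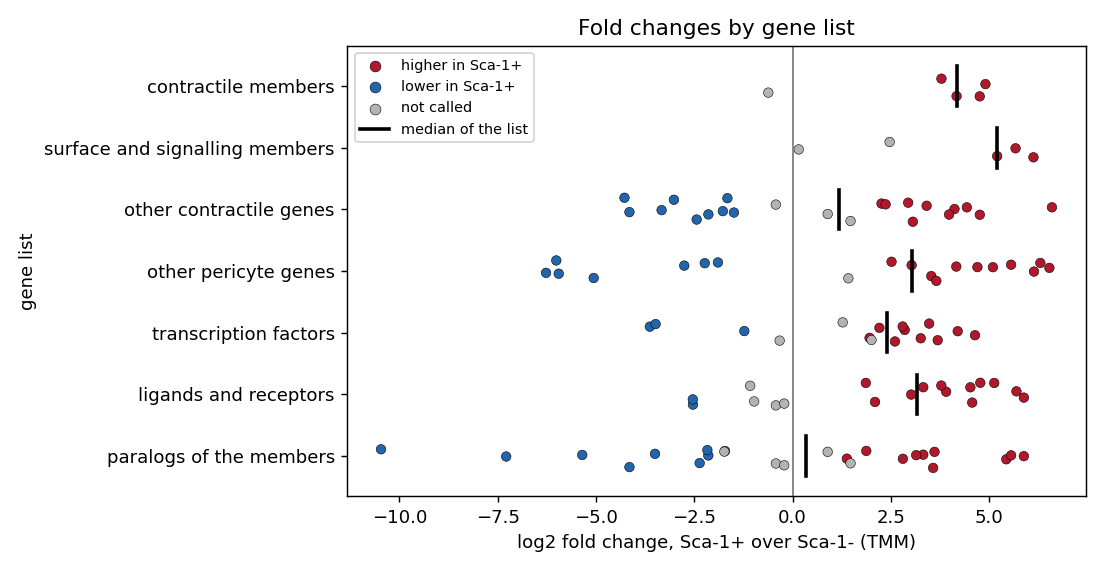
Log2 fold change of Sca-1+ over Sca-1- ECs for the 10 genes, split into contractile and surface genes, and for 5 companion lists, with 1 point per gene tested, colored by its call, and a black bar at the median of the list. The 10 genes hold no point lower in Sca-1+ ECs, and the contractile, pericyte and paralog lists hold points on both sides.

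Among transcription factors of mural cells and their Notch targets, 10 of 16 tested were higher and 3 lower, with a median log2 fold change of 2.41. Myocd, the coactivator of SRF that is specific to smooth and cardiac muscle, did not pass the filter on low counts. It had 1, 0, 10 and 56 reads in Sca-1+ libraries 7, 13, 15 and 19 and 0, 0, 0, 0 and 1 in the Sca-1- libraries. Most of its reads were thus in the library with the highest Acta2. Srf itself was lower in Sca-1+ ECs, at 10.2 against 23.9 CPM with a log2 fold change of -1.23 (SE 0.23, edgeR adjusted p = 0.0017). Hey1, a Notch target, rose by a log2 fold change of 4.20 (SE 0.38, adjusted p = 3.7e-05), and Klf4, a zinc-finger factor of ECs and smooth muscle, by 3.69 (SE 0.40, adjusted p = 8.5e-05). Mrtfa, listed as Mkl1 in the table and another coactivator of SRF, fell. It stood at 3.95, 1.23, 5.08 and 4.22 CPM in the Sca-1+ libraries and at 43.6, 73.7, 32.3, 40.6 and 34.1 CPM in the Sca-1- libraries, a log2 fold change of -3.63 (SE 0.45, adjusted p = 0.00018). Srf and Mrtfa were thus both lower in the fraction in which Acta2 was higher. Mrtfb, listed as Mkl2 and chosen after its values were seen, went the other way. It averaged 55.2 CPM in Sca-1+ ECs against 7.94 CPM in Sca-1- ECs, a log2 fold change of 2.80 (SE 0.315, edgeR adjusted p = 0.0001).

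Of the ligands and receptors through which ECs and mural cells signal, 12 of 18 were higher and 2 lower, with a median log2 fold change of 3.17. Pdgfb, the ligand of PDGFRβ, stood at 42.8, 50.1, 41.6 and 38.4 CPM in the Sca-1+ libraries and at 11.2, 15.1, 3.9, 8.8 and 11.6 CPM in the Sca-1- libraries. The ligand was therefore nearly level across the Sca-1+ libraries, while its receptor gene differed 6.91-fold between the lowest and the highest. The log2 fold change of Pdgfb was 2.10 (SE 0.34, edgeR adjusted p = 0.00075). Jag1, the Notch ligand that ECs present to mural cells, stood at 30.7, 33, 27.7 and 39.3 CPM in the Sca-1+ libraries and at 0.564 to 2.08 CPM in the Sca-1- libraries, a log2 fold change of 4.78 (SE 0.42, adjusted p = 3.5e-05). The Notch ligands Dll4 and Dll1 had log2 fold changes of 5.70 (adjusted p = 1.3e-05) and 5.13 (adjusted p = 1.5e-05).

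Paralogs of the 10 genes were tested to see whether related genes moved alike. Of 26 listed, 24 were tested, and 10 were higher and 9 lower, with a median log2 fold change of 0.34. Notch4, the endothelial Notch receptor, was higher like Notch3 but in another order within the Sca-1+ libraries, at 109, 53.7, 85.2 and 43.3 CPM, and had a log2 fold change of 5.88 (SE 0.55, edgeR adjusted p = 4.2e-05). Rgs4, a relative of Rgs5, stood at 230, 492, 542 and 337 CPM in the Sca-1+ libraries and at 0.0601, 0.0698, 3.22, 34.8 and 3.75 CPM in the Sca-1- libraries, with its highest Sca-1- value in library 16 as for Rgs5. Rgs18, the relative known from platelets, fell by 10.5 on the log2 scale (SE 0.88, adjusted p = 2.6e-05), from 3220 CPM in Sca-1- ECs to 2.26 CPM in Sca-1+ ECs. Actb, the cytoplasmic β-actin, averaged 1500 CPM against 7700 CPM (log2 fold change -2.36, SE 0.40, adjusted p = 0.00099), opposite in direction to Acta2. No stretch of 75 bases in the Acta2 transcripts was shared with another gene. The read length is not given in the sources used here.

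The direction of these differences depends on what is held equal between fractions. When libraries were scaled so that the 25 endothelial markers were equal on balance, the median log2 fold change of all genes tested moved from 0.07 to -4.26, with 1.54% of genes called higher and 88.0% lower in Sca-1+ ECs. On this scale Mcam alone of the 10 genes was higher (log2 fold change 1.54, SE 0.42, edgeR adjusted p = 0.0043), Cnn1 was lower (-5.22, adjusted p = 0.00029) and Cspg4 was lower (-4.16, adjusted p = 0.0096). Acta2 was at 0.64 (adjusted p = 0.39), Tagln at -0.04 (0.93), Myh11 at 0.62 (0.64), Des at -0.31 (0.82), Pdgfrb at -1.81 (0.17), Rgs5 at 2.49 (0.15) and Notch3 at 1.30 (0.29), each with its adjusted p in parentheses. Relative to the median gene, Acta2 was at 4.69 under TMM and at 4.90 under the endothelial scaling, and Mcam at 5.60 and 5.80. The signs of Tagln, Des, Cspg4 and Pdgfrb turned with the scaling, though of these only Cspg4 passed the test there, and all 4 lay above the median gene under both scalings.

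**Figure D4:**
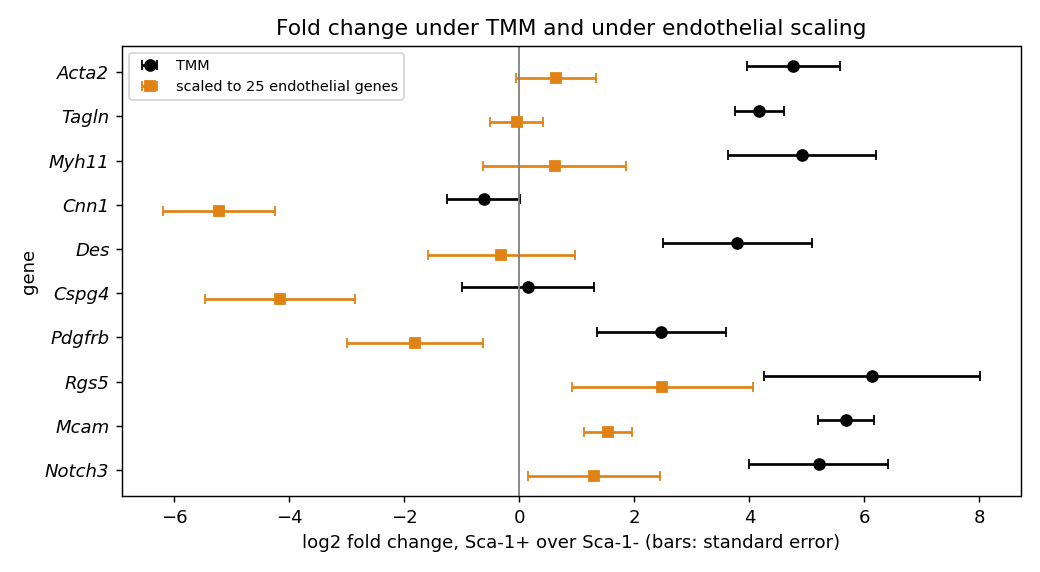
Log2 fold change of each gene, Sca-1+ over Sca-1- ECs, with its standard error, under TMM (black circles) and with libraries scaled to 25 endothelial markers (orange squares). Under TMM, 7 genes were called higher, and under the endothelial scaling Mcam was called higher and Cnn1 and Cspg4 lower.

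Markers of other cells that the gate could hold moved with the fractions. Leukocyte markers summed to 27.6 to 1010 CPM in Sca-1+ ECs and 2080 to 4760 CPM in Sca-1- ECs, with 1 of 12 higher and 6 lower, and Ptprc, which encodes CD45, averaged 0.843 against 28.9 CPM. Stromal and fibroblast markers summed to 943 to 3290 CPM and 5760 to 46200 CPM, with 5 of 16 higher and 4 lower. Col1a1, the type I collagen chain, averaged 165 against 12200 CPM, while Cxcl12, a chemokine of perivascular stromal cells, averaged 917 against 171 CPM. Within the Sca-1+ libraries the stromal sum was lowest in library 13, as for the mural genes, and highest in library 7, at 3290 CPM. Of 14 megakaryocyte markers 0 were higher and 13 lower, and of 10 erythroid markers 0 were higher and 7 lower. Of 8 Schwann cell markers 5 were tested, and 0 were higher and 3 lower. Sox10, which was not tested, was at 0 in every Sca-1+ library and in 4 of the 5 Sca-1- libraries. Of 8 skeletal muscle markers only Acta1, an actin, was tested. Acta1 was called higher in Sca-1+ ECs at low levels, 1.8 against 0.496 CPM (log2 fold change 1.88, edgeR adjusted p = 0.047), and its fractions overlapped. The 7 mural genes called were higher in the fraction where the summed megakaryocyte, leukocyte, erythroid and stromal markers were lower. The stromal list was split, however. Cxcl12, Lepr, Kitl, Adipoq and Nes were called higher in Sca-1+ ECs, and Col1a1, Col1a2, Gsn and Bglap were called lower. The part of megakaryocytes, leukocytes, erythroid cells and stromal cells in the mural values was not tested.

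**Figure D5:**
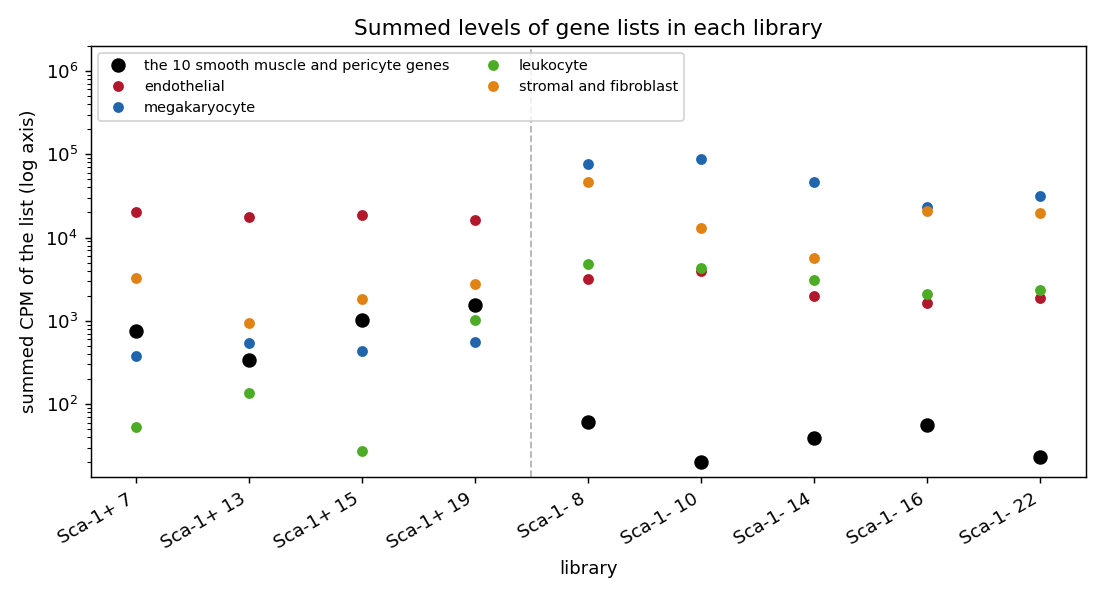
Summed CPM of the 10 genes (black) and of 4 marker lists in each library on a log axis, with Sca-1+ libraries to the left of the dashed line. The sum of the 10 genes is 336 to 1550 CPM in Sca-1+ ECs and 20 to 60.6 CPM in Sca-1- ECs, and the endothelial sum is nearly level among Sca-1+ libraries.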

How the data were processed

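BM ECs of the CD45-Ter119-CD31+ gate were measured by RNA-seq, in 4 Sca-1+ and 5 Sca-1- libraries grouped by their labels. The authors deposited 1 table of raw whole-number read counts per gene, with Ensembl identifiers and gene names; every sample column was used. The submitters' processing notes name STAR, featureCounts and mm10, without versions. Libraries were made from poly(A) RNA by a low-input kit without molecular identifiers, and use of strand is not given in the sources used here. The analysis used edgeR 4.0.16 (R 4.3.3) with filterByExpr (minimum count 10, minimum total 15), TMM and a quasi-likelihood F-test with Benjamini-Hochberg adjustment at 0.05. Standard errors came from the F statistic, and the prior count for log2 CPM was 2. The common dispersion was 0.301. The 10 genes and the lists were chosen with earlier results of these data known. Of 196 listed symbols all matched, 4 through an older symbol.

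Named companions were, per list, the 3 genes with the largest absolute log2 fold change among those with adjusted p under 0.05, a mean log2 CPM of 3 or more and fractions that did not overlap, plus defining genes set by name. Other scalings, filters, tests (DESeq2 1.42.0, limma 3.58.1) and left-out libraries were tried. The fit was first tested on simulated data. Exons and overlaps came from GENCODE M21, which held 45229 of the 46078 identifiers, and promoters from RefSeq (GRCm38.p6). Plots used matplotlib 3.10.9.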

Additional observations from a re-analysis of the deposited data

Results flagged for a closer look

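In 64 groups of libraries examined, 3 held a library far from the others by Dixon's criterion, where chance alone sets off about 1 group in 20. Rgs5 in Sca-1- library 16 was 18.5 CPM (556 reads), while the other 4 Sca-1- libraries lay between 0 and 0.0407 CPM. Casq2 in the same library was 0.764 CPM (23 reads), and the other 4 were at 0. Hspb1 in Sca-1- library 10 was 2.58 CPM, below the 9.13 to 11.5 CPM of the other 4.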

How the results depend on the processing

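Of 200 alternative values for the 10 genes, 168 kept direction and side of the threshold, 17 lost the call, 3 gained it and 12 changed sign. Scaling to the endothelial genes gave 14266 differing genes in place of 7137. The 10 genes then had 1 higher and 2 lower, the contractile companions 1 and 14, and the pericyte companions 2 and 9. Regulators had 0 higher and 9 lower, ligands and receptors 2 and 8, and paralogs 1 and 16. Tagln, Des, Cspg4 and Pdgfrb then stood at -0.042, -0.31, -4.16 and -1.81. The labels share no replicate number between fractions, although those of 15 and 16 share another number whose meaning is not given. Consecutive end numbers (7 and 8, 13 and 14, 15 and 16) had deviations correlated at 0.147, 0.148 and 0.042. All other pairs of a Sca-1+ and a Sca-1- library lay between -0.191 and 0.065. The values for 7 and 8 and for 13 and 14 were thus above all of these, and that for 15 and 16 was within them. The labels do not state a pairing, so it was neither established nor excluded, and the main fit did not use it. A replicate block of these pairs (6 libraries) gave 4340 differing genes, 5 of the 10 genes higher (Myh11 at 3.90 with adjusted p = 0.14 and Des at 3.38 with 0.095 were lost), 5 contractile companions higher, and Cspg4 at -0.89. The same 6 libraries without the block gave 3 of the 10 genes higher (Acta2, Tagln and Mcam), 5 contractile companions and 3 pericyte companions. Without Sca-1+ libraries 13 and 19, chosen after seeing the data, 4641 genes differed. Of the 10 genes 5 were then higher, in place of 7, and 7 pericyte companions were higher. Cspg4 also turned to -0.0033 under DESeq2 size factors, -0.0082 under DESeq2 and -0.84 under limma voom. Leaving out 1 library at a time moved Cspg4 between -0.61 and 1.003, Des between 3.25 and 4.61 and Pdgfrb between 2.05 and 3.46; Acta2, Tagln, Myh11, Rgs5, Mcam and Notch3 stayed called in all 9 such fits. Limma voom called Pdgfrb (4.09, adjusted p = 0.029). Of the 5 Sca-1- libraries, 4 were at the floor for Rgs5 and 3 each for Myh11, Des and Notch3. The causes of these changes were not tested.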

Other observations

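Some genes fixed in the mural lists but not named by the rule above showed the same division, and are given here as values chosen after they were seen. Higd1b, a pericyte-enriched mitochondrial protein gene, averaged 15.8 CPM in Sca-1+ ECs and 0.174 CPM in Sca-1- ECs, with 3 of 5 Sca-1- libraries at the floor (log2 fold change 6.30, edgeR adjusted p = 0.0015). Pln, which encodes phospholamban, the regulator of the sarcoplasmic calcium pump, averaged 9.91 and 0.425 CPM, with 4 of 5 Sca-1- libraries at the floor (4.43, adjusted p = 0.033). On the other side, Trpc6, a calcium channel of smooth muscle and platelets, averaged 2.59 and 159 CPM (-5.95, adjusted p = 0.0017).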
